A study of Mus musculus with 16 samples.

Results

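The synaptic vesicle and release machinery was taken as 36 genes, chosen by name from the 55335 genes of the raw count table, and all 36 were found in it. They comprised 9 synapsins and vesicle membrane proteins, 6 synaptotagmins, 7 SNARE proteins and their regulators, 10 priming and active zone genes, 2 vesicular glutamate transporters and 2 endocytosis genes. All 36 passed the filter on low counts that left 16475 genes for testing.

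RNA from the whole hippocampus of 16 female mice was sequenced, with 4 mice in each of 4 groups, to ask how inhibition of stearoyl-CoA desaturase (SCD) alters gene expression in the 3xTg model of Alzheimer's disease. SCD is the enzyme that makes monounsaturated from saturated fatty acids. WT-D were wild-type mice of the strain C57BL/6J x 129S1 given the vehicle, 0.8% DMSO in artificial cerebrospinal fluid, and WT-S were mice of that strain given the inhibitor. 3xTg-D and 3xTg-S were B6;129-Psen1tm1Mpm Tg(APPSwe,tauP301L)1Lfa/Mmjax mice given vehicle or inhibitor, which carry a mutant presenilin knock-in and human APP and tau transgenes driven by a Thy1 element that is active in neurons. The inhibitor was the compound that the labels call Cayman and the study CAY10566 (SCDi), at 80 µM, although a protocol note attached to every sample names ab142089. All mice, controls included, carried an osmotic pump that infused the lateral ventricle for 28 days, and all were 10 months old. The transgenes are thus driven in neurons, the cells that make most of the proteins described here.

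At a synapse, neurotransmitter is pumped into vesicles, the vesicles are tethered and docked at the active zone, and priming factors bring the SNARE proteins of vesicle and plasma membrane into a partly assembled complex. Calcium entry acts on synaptotagmin, the complex closes, the membranes fuse, and the vesicle membrane is then retrieved by endocytosis. In the hippocampus most of these vesicles belong to excitatory neurons that release glutamate.

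Between 15413385 and 23590149 reads per mouse lay on genes. After the scaling of libraries given below (TMM), the members together made up 1.49% to 1.80% of the scaled library size. All 10 neuronal and all 10 excitatory hippocampal neuron markers were above 1 CPM (counts scaled to a common number of reads on genes), and the summed neuronal markers lay between 3989 CPM, in a 3xTg-D mouse, and 4877 CPM, in a WT-S mouse. Of the 8 choroid plexus markers, 4 were below 1 CPM (Folr1, Aqp1, Slc4a5 and Otx2), but Ttr, their most abundant, was at 638 CPM in WT-D mouse 4 and 246 CPM in WT-S mouse 1 against 0.756 to 31.7 CPM in the other 14 mice. Reads that mapped to a single place but to no annotated gene made up 7.82% to 15.1% of the uniquely mapped reads, lowest in 3xTg-S mouse 2 and highest in 3xTg-S mouse 4. In whole tissue, fewer cells of a type and less RNA per cell cannot be told apart.

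Promoter sequence is shown for Rims1, Rims3, Pclo and Bsn, active zone genes that the results below return to. Rims2 was not among the genes matched. RefSeq promoter windows of 250 bases before and 50 after a gene's start (GRCm38.p6) were matched for 27 of the 36 members, in 34 windows. Motifs were searched on both strands. The SP1 box, GGGCGG, was in 67.6% of the member windows (23 genes) and in 35.7% of all 32851 windows, and the median GC content was 61.2% in the member windows and 52.7% in all. The CRE, TGACGTCA, was in 2.94% of member windows (Syn1) against 1.79% of all, the EGR1 box, GCGTGGGCG, in 2.94% (Unc13a) against 0.612%, and the RE1 element in 0 of 34 against 0.0639%. The EGR1 letters end in GGGCG, so an EGR1 match with a further G also holds an SP1 box. A match of letters is a description and not a binding site. In the 250 bases before the start given here, 5′ to 3′ on the gene's strand, capitals mark SP1 boxes.
Rims1 (chr1:22806159-22806408, minus strand): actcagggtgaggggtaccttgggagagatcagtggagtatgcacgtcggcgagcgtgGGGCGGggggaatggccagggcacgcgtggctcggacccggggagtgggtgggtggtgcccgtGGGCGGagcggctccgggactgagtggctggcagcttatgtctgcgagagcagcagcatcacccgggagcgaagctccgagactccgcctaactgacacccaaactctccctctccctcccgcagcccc
Rims3 (chr4:120854549-120854798, plus strand): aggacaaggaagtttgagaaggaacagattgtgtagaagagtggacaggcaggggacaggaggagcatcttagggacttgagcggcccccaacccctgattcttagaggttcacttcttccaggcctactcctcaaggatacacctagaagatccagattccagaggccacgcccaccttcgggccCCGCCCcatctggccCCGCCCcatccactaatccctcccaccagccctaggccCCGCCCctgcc
Pclo (chr5:14514668-14514917, plus strand): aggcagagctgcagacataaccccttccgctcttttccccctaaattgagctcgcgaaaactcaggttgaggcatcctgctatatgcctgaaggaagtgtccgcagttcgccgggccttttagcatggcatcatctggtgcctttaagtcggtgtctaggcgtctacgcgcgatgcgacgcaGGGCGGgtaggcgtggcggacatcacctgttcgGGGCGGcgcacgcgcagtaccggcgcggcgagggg
Bsn (chr9:108190384-108190633, minus strand): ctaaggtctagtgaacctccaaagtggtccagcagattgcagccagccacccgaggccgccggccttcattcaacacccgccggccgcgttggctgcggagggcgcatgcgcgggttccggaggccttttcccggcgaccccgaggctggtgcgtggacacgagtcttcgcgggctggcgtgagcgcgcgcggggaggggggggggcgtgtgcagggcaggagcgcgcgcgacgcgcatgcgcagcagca
Rims1 and Pclo each held 2 SP1 boxes and Rims3 held 3, while Bsn held 0 in a window that was 71.6% GC.

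Levels between genes were compared per kilobase of combined exon length (Gencode M21), and they spanned 419-fold. The SNARE gene Snap25, whose product anchors the fusion complex in the plasma membrane, was highest at 350.0 CPM per kb (mean of 16 mice), followed by Cplx2, a complexin that binds the assembled SNAREs, at 315 CPM per kb. Syt1, the calcium sensor of fast release, was at 227 CPM per kb, and synaptophysin (Syp), an abundant membrane protein of small vesicles, at 224 CPM per kb. Vamp2, the vesicle SNARE, was at 222 CPM per kb. The partners in fusion differed in level, since Stx1a, the plasma membrane syntaxin, was at 20.9 CPM per kb and Vamp1, the other vesicle SNARE of the list, at 10.5 CPM per kb. Lowest was Syn3, the least abundant synapsin, at 0.835 CPM per kb, against 124 and 94.0 CPM per kb for Syn1 and Syn2, which tether vesicles to each other and to the cytoskeleton.

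The remaining members of these groups fell between them. SV2 proteins, which are glycoproteins of the vesicle membrane, had 2 abundant genes, Sv2a (84.8 CPM per kb) and Sv2b (72.5), and a scarce one, Sv2c (2.74). The synaptogyrins Syngr1 and Syngr3 were at 66.7 and 50.5 CPM per kb. Among the synaptotagmins, Syt11 (149 CPM per kb) came after Syt1, then Syt4 (71.3), Syt5 (39.9) and Syt7 (35.2), with Syt12 lowest at 4.32. Cplx1, the second complexin, was at 169 and Stxbp5 at 9.81 CPM per kb.

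**Figure D1:**
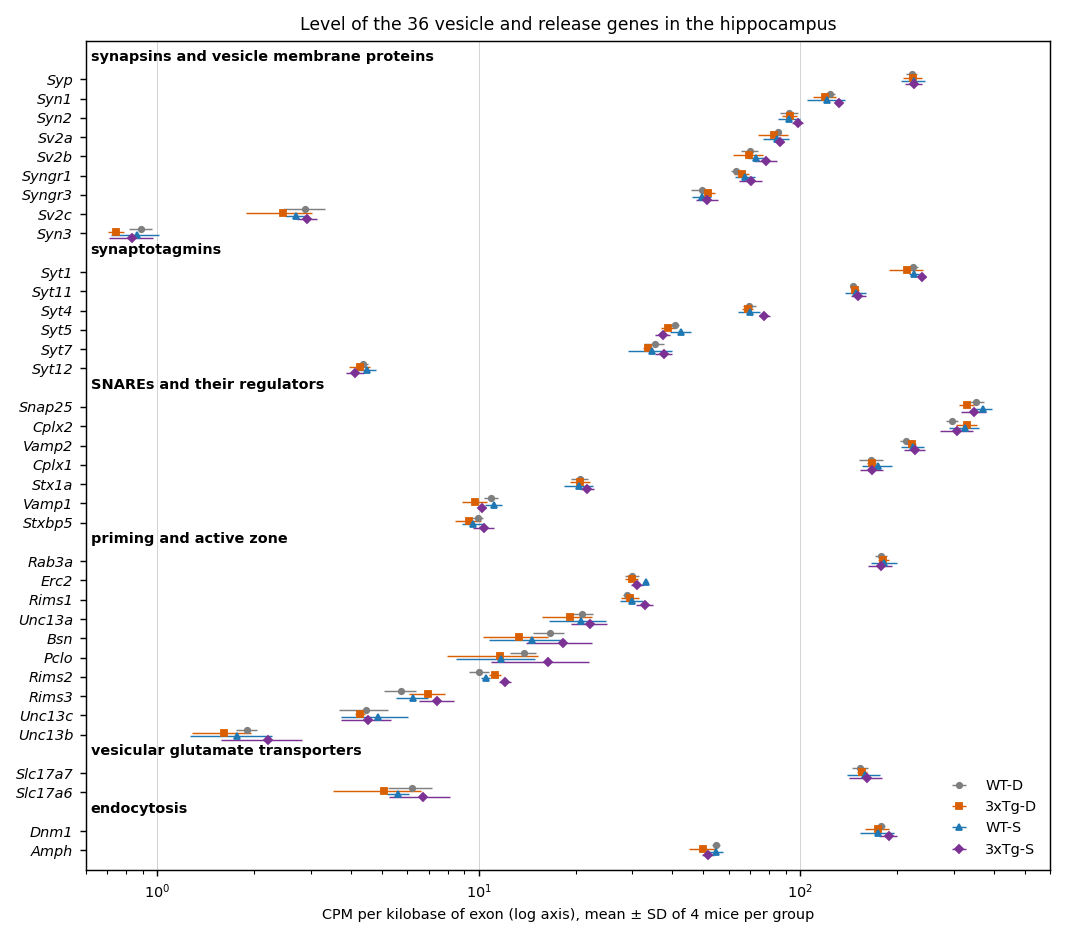
Mean level of each of the 36 genes in CPM per kilobase of exon on a log axis, with the SD of 4 mice as bars and 1 symbol per group. Over all 16 mice Snap25 was farthest to the right at 350.0 and Syn3 farthest to the left at 0.835 CPM per kb, and for most genes the 4 group symbols lay close together.

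The vesicular glutamate transporters fill vesicles with glutamate. Slc17a7 (VGLUT1), the transporter of hippocampal and cortical excitatory neurons, was at 157 CPM per kb and Slc17a6 (VGLUT2), which prevails in subcortical neurons, at 5.90 CPM per kb, and their ratio per kb was 20.9 to 52.2 in single mice. Among the active zone genes, the vesicle GTPase Rab3a was highest at 180.2 CPM per kb. Rims1 was at 30.3, Rims2 at 11.0 and Rims3 at 6.59 CPM per kb. The Munc13 priming factors stood in the order Unc13a (20.8), Unc13c (4.54) and Unc13b (1.87 CPM per kb). The order of the last pair rests on combined exon length, 8796 bases in Unc13c and 22746 in Unc13b. Before division by length they were at 39.9 and 42.6 CPM. Dnm1, the dynamin that pinches off endocytic vesicles, was at 179 CPM per kb and Amph, the amphiphysin that recruits it, at 52.8 CPM per kb.

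Most members varied little between mice of a group. The coefficient of variation (CV) within groups was below 10% in 27 of 36 members, with a median of 7.28% against 11.8% over all 16475 genes. The highest mouse was less than 1.5-fold above the lowest in 27 members. Members and all genes were not matched for level, which bears on the CV, so the lower median is not read as particular to the members. Erc2, an active zone scaffold of the ELKS family, was steadiest at 3.93%, and Rims2 (4.74%) and Syt11 (4.85%), a synaptotagmin without calcium binding, came next. In 6 members the CV was above 15%, namely Pclo (27.9%), Unc13b (23.5%), Bsn (21.4%), Slc17a6 (20.2%), Unc13c (17.7%) and Unc13a (15.2%). Of these, 5 belong to the priming and active zone genes.

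The first comparison asked what the 3xTg genotype changed under vehicle. Genes were called where the unadjusted p of edgeR's quasi-likelihood test did not exceed 0.01, the threshold of the study, and adjusted p-values over all genes are printed with each value. By this rule 0 of 36 members differed between 3xTg-D and WT-D, against 4.91% of all genes tested, and 0 were at an adjusted p of 0.05 or less, against 1.85%. At an unadjusted p below 0.05 there were 5 members, against 12.6% of all genes, so that here too the members' share was close to that of all genes, and DESeq2's likelihood ratio test at 0.01 gave 0. Those 5 were Rims3 with 0.28 ± 0.10, Rims2 with 0.16 ± 0.06, Cplx2 with 0.16 ± 0.06, Syn3 with -0.25 ± 0.10 and Vamp1 with -0.16 ± 0.07, as log2 fold changes ± SE, with adjusted p from 0.275 to 0.358. Leaving out WT-D mouse 3 brought Rims3 (0.34, adjusted p = 0.234) and leaving out 3xTg-D mouse 4 brought Cplx2 (0.19, adjusted p = 0.168) to a call. The median log2 fold change of the members was -0.03 against 0.00 for all genes, and 14 of 36 were above 0. Without 3xTg-D mouse 2, which was the lowest of all mice in 14 members, the median was 0.02 and 20 were above 0. Without WT-D mouse 4 the median was -0.05 with 8 above 0, and without 3xTg-D mouse 4 it was -0.05 with 9 above 0. Markers of other cells moved in the same comparison. The log2 fold change was above 0 for all 8 astrocyte markers (median 0.19), 7 of 8 oligodendrocyte markers (median 0.18) and 7 of 8 microglia markers (median 0.26), and below 0 for all 8 endothelial markers (median -0.13) and all 5 choroid plexus markers tested (median -2.27). From WT-D to 3xTg-D the range of the summed level was 4498 to 5318 and 5800 to 6888 CPM for oligodendrocytes, 5913 to 6601 and 6250 to 8391 CPM for astrocytes and 361 to 659 and 435 to 819 CPM for microglia. For endothelium it was 193 to 225 and 164 to 195 CPM, and for choroid plexus 28.2 to 736 and 28.5 to 45.9 CPM. Neuronal markers had 6 of 10 above 0 (median 0.01), excitatory hippocampal neuron markers 5 of 10 (median -0.02) and inhibitory neuron markers 6 of 8 (median 0.07). The excitatory marker C1ql2 was called lower, and the inhibitory markers Lhx6, Dlx1 and Vip were called higher. The part of these cells in the members' values was not tested. The share of reads outside genes was 10.45% to 12.52% in WT-D and 8.79% to 11.3% in 3xTg-D. Its part in the marker differences was not tested either.

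Syn3 was one of the 5 members just named and had a negative log2 fold change. It stood at 11.9, 9.85, 10.6 and 11.3 CPM in WT-D, at 9.18, 8.43, 9.23 and 9.76 in 3xTg-D, at 9.39, 9.95, 9.95 and 13.4 in WT-S and at 10.7, 7.92, 11.0 and 11.6 in 3xTg-S. Each 3xTg-D mouse was below each WT-D mouse, as in 3.78% of all genes tested, while the SCDi groups overlapped with both. Exons of Syn3 share 1733 bases with Timp3 on the opposite strand, a more abundant gene, and reads of such pairs cannot be told apart unless strand was used in counting, which is not given in the sources used here. Its log2 fold change was -0.25 ± 0.10 (SE, adjusted p = 0.295).

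**Figure D2:**
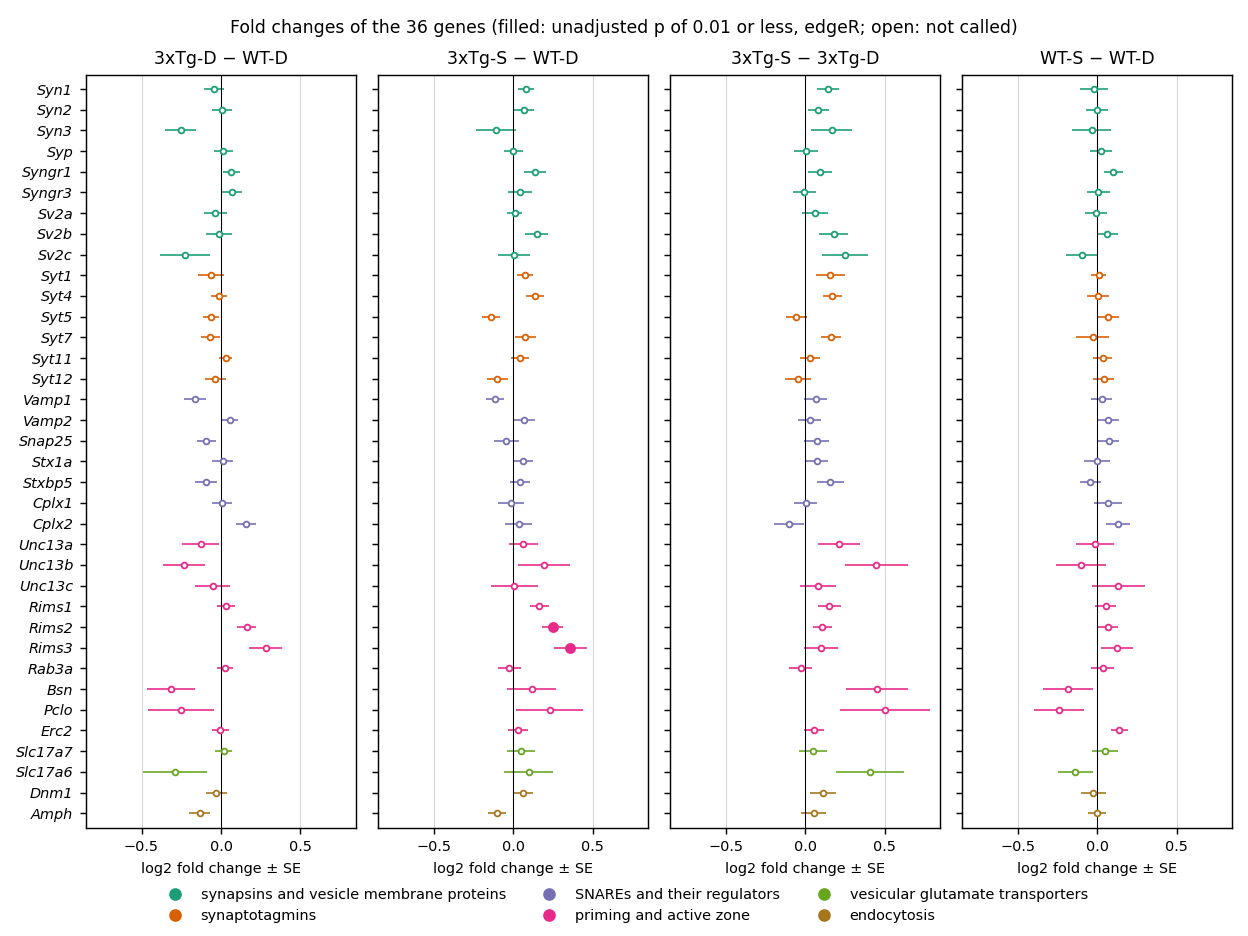
Log2 fold change with its SE for each of the 36 genes in 4 comparisons of 4 against 4 mice, coloured by role and filled where the unadjusted p was 0.01 or less in edgeR. Filled points are Rims2 and Rims3 in the second panel, and the widest bars are those of Pclo, Bsn, Unc13b and Slc17a6.

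The comparison of 3xTg-S with WT-D asks which differences from vehicle-treated wild-type mice stand in 3xTg mice after SCDi, and it shares the WT-D mice with the comparison above. Here 2 of 36 members were called, Rims2 and Rims3, against 5.69% of all genes, so the members' share was close to that of all genes. At an adjusted p of 0.05 or less 0 were called, against 1.58% of genes. At an unadjusted p below 0.05 there were 5 members, against 13.1% of all genes, again a share close to that of all genes, and DESeq2 at 0.01 called 3, the same pair and Rims1. All are RIM genes, whose long forms are scaffolds that link vesicle-bound Rab3 to Munc13 and to calcium channels at the active zone, while Rims3 encodes a short form. Neither Rims2 nor Rims3 was called under vehicle, so in these fits the pair fell in the study's class of "New" genes, but that class turned on the setting. Under vehicle Rims3 was called in 3 of 18 alternatives and Rims2 in 1 of 18, without all mice numbered 2 (0.21, adjusted p = 0.184).

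Rims2 (ENSMUSG00000037386.16, chr15:39198261-39684372, plus strand) was at 101, 111, 111 and 95.8 CPM in WT-D, at 115, 111, 122 and 119 in 3xTg-D, at 107, 105, 113 and 110.4 in WT-S and at 119.5, 132, 125 and 126 in 3xTg-S. The 3xTg-S mice stood above all WT mice. Each 3xTg-D mouse was above each WT-D mouse, as in 724 of the 16475 genes tested. The margin was small, since the highest WT-D and the lowest 3xTg-D mouse both rounded to 110.6 CPM. WT-S mouse 3 lay within the 3xTg-D range. Means were 104 ± 7.40 and 126 ± 5.18 CPM in WT-D and 3xTg-S (SD, n = 4 each). The log2 fold change was 0.25 ± 0.06 (SE, adjusted p = 0.102). Between 3xTg-S and WT-S it was 0.19 ± 0.06 (SE, adjusted p = 0.272), and between 3xTg-D and WT-D 0.16 ± 0.06 (SE, adjusted p = 0.287). The call was lost without WT-D mouse 1 (adjusted p = 0.259), without all mice numbered 4 (adjusted p = 0.342) and with the choroid plexus marker score as a covariate (adjusted p = 0.462).

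Rims3 (ENSMUSG00000032890.17, chr4:120854816-120896579, plus strand) was at 39.0, 45.5, 51.8 and 46.6 CPM in WT-D, at 49.5, 55.8, 51.1 and 65.4 in 3xTg-D, at 45.2, 55.4, 54.1 and 44.6 in WT-S and at 49.8, 64.9, 65.0 and 57.6 in 3xTg-S. The groups overlapped, with 3xTg-S mouse 1 below the highest WT-D mouse. Means were 45.7 ± 5.22 and 59.3 ± 7.23 CPM in WT-D and 3xTg-S (SD, n = 4 each). The log2 fold change from WT-D to 3xTg-S was 0.36 ± 0.10 (SE, adjusted p = 0.135), that from WT-D to 3xTg-D 0.28 ± 0.10 (SE, adjusted p = 0.275) and that from WT-S to 3xTg-S 0.24 ± 0.11 (SE, adjusted p = 0.482). The call was lost on leaving out WT-D mouse 1, 2 or 4 or 3xTg-S mouse 2, 3 or 4, at log2 values of 0.29 to 0.38, and with the choroid plexus score as a covariate (adjusted p = 0.305).

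Rims1 (ENSMUSG00000041670.16, chr1:22286251-22805994, minus strand), the most abundant of these genes, was at 212, 221, 208 and 212 CPM in WT-D, at 228, 197, 225 and 221 in 3xTg-D, at 199.8, 221, 245 and 217 in WT-S and at 227, 261, 246 and 233 in 3xTg-S. The 3xTg-S mice stood above the WT-D mice without overlap, while 3xTg-D mouse 1 and WT-S mouse 3 lay among them. Its log2 fold change from WT-D to 3xTg-S was 0.16 ± 0.06 (SE, adjusted p = 0.255), and with the share of reads outside genes as a covariate 0.18 (adjusted p = 0.0442). That was the smallest adjusted p of 18 alternatives. Rims1 was called in 2 of them, and its adjusted p reached 0.584.

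**Figure D3:**
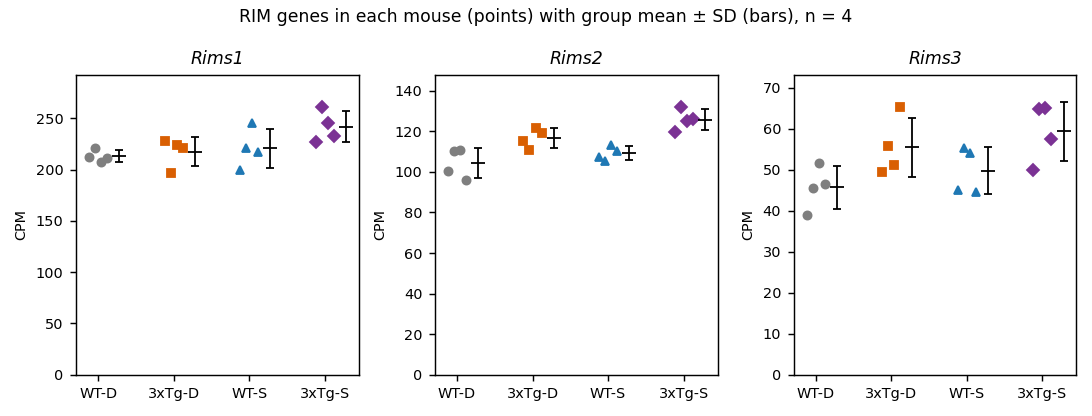
CPM of Rims1, Rims2 and Rims3 in each of the 16 mice (points), with the group mean and SD beside them. For Rims2 the 4 3xTg-S mice, at 119.5 to 132 CPM, stood above all 8 WT mice, which reached 113 CPM.

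In 6 members each 3xTg-S mouse was above each WT-D mouse, Rims1, Rims2, Syt1, Syt4, Syn1 and Sv2b, against 5.13% of all genes. Syt4, a synaptotagmin of vesicles that carry neuropeptides and growth factors, was at 254, 282, 279.7 and 267 CPM in WT-D, at 253, 267, 276 and 275 in 3xTg-D, at 296, 250, 281 and 257 in WT-S and at 293, 319, 298 and 296 in 3xTg-S. The 3xTg-S mice exceeded all mice of the other groups but WT-S mouse 1. Its log2 fold change was 0.14 ± 0.06 (SE, adjusted p = 0.324), and Syt1, Syn1 and Sv2b had 0.07, 0.08 and 0.15 with adjusted p from 0.448 to 0.609. On the other side, Syt5, a synaptotagmin linked to dense-core vesicles, had -0.14 ± 0.06 (SE, adjusted p = 0.328), and without 3xTg-S mouse 2 it was called (-0.17, adjusted p = 0.0959), as was Pclo. Of the 36 members 28 were above 0, with a median of 0.06 against -0.00 for all genes, and without 3xTg-S mouse 2 the median was 0.03 and 24 were above 0.

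SCDi against vehicle within the 3xTg mice is the test of the treatment itself. By edgeR 0 of 36 members were called, against 0.904% of genes, and 0 of 16475 genes were at an adjusted p of 0.05 or less. At an unadjusted p below 0.05 there were 4 members, against 6.33% of genes, and DESeq2 at 0.01 called 1, Syt4 (adjusted p = 0.891). Syt4 had a log2 fold change of 0.17 ± 0.06 (SE, adjusted p = 0.722), and the 3xTg-S mice were above the 3xTg-D mice without overlap, as in 1.4% of all genes. The other 3 were Syt7, the calcium sensor of slow release, with 0.16 ± 0.07, Bsn with 0.45 ± 0.19 and Unc13b with 0.45 ± 0.20, each with an adjusted p of 0.722. Without 3xTg-S mouse 2, Bsn (0.59, adjusted p = 0.204) and Unc13b (0.58, adjusted p = 0.204) were called. With the replicate number as a block, calls over all genes rose. Bsn, Pclo and Unc13b (adjusted p = 0.0225, 0.0247 and 0.0269) and Unc13a (adjusted p = 0.121) were then among them.

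Most members had a positive log2 fold change in this comparison, without passing the test in the fit without a block. Of 36, 31 had a log2 fold change above 0 and the median was 0.09, against 0.01 for all genes. The priming and active zone genes held 9 of 10 above 0 (median 0.13), the synapsins and vesicle membrane proteins 8 of 9 (median 0.09), the SNARE group 6 of 7 (median 0.07) and the synaptotagmins 4 of 6 (median 0.09). Without 3xTg-D mouse 2 the count was 27 and the median 0.06, without 3xTg-S mouse 2 it was 26 and 0.08, and without all mice numbered 2 it was 22 and 0.04. Markers of glia lay the other way in the same mice. All 8 oligodendrocyte markers (median -0.34), all 8 microglia markers (median -0.41) and all 8 astrocyte markers (median -0.20) were below 0. Called lower were 3 oligodendrocyte genes, Cldn11, Mag and Cnp. Of the neuronal markers 9 of 10 were above 0 (median 0.03). Excitatory hippocampal neuron markers had 4 of 10 above 0 (median -0.03), and inhibitory neuron markers 4 of 8 (median -0.04). Summed oligodendrocyte markers ranged from 5800 to 6888 CPM in 3xTg-D and 4422 to 6910 CPM in 3xTg-S. Those of astrocytes spanned 6250 to 8391 and 6023 to 7199 CPM and those of microglia 435 to 819 and 352 to 529.5 CPM in the same groups, and the part of these cells in the members' values was not tested.

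SCDi was compared with vehicle in WT mice as well. By edgeR 0 of 36 members were called between WT-S and WT-D, against 0.188% of genes (31), and 0 of 16475 genes were at an adjusted p of 0.05 or less. With the replicate number as a block 115 genes and again 0 members were called. At an unadjusted p below 0.05 there was 1 member, against 2.25% of genes. It was Erc2, which DESeq2 also called at 0.01 (adjusted p = 0.996). Erc2 was at 313, 288, 284 and 283 CPM in WT-D, at 293, 274, 304 and 292 in 3xTg-D, at 316, 325, 318 and 326 in WT-S and at 295, 317, 309 and 287 in 3xTg-S. All WT-S mice stood above all WT-D mice, as in 0.765% of all genes, while 3xTg-S overlapped with both and 3xTg-D with WT-D. Its log2 fold change was 0.14 ± 0.05 (SE, adjusted p = 0.9996). Of the members 21 were above 0 (median 0.02, all genes 0.00), and without WT-S mouse 2 the count was 16 and the median -0.01. Without WT-S mouse 4, 3 members were called on the low side, Pclo (-0.44, adjusted p = 0.271), Bsn (-0.37, adjusted p = 0.283) and Unc13b (-0.31, adjusted p = 0.281).

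Between the genotypes under SCDi, 3xTg-S against WT-S, 0 of 36 members were called by edgeR, against 4.26% of genes, and 0 at an adjusted p of 0.05 or less, against 1.4%. At an unadjusted p below 0.05 there were 2 members, against 10.7% of genes, Rims2 as given above and Syt5 with -0.20 ± 0.08 (SE, adjusted p = 0.357), and DESeq2 at 0.01 called 1, Rims2. Syt5 was at 94.7, 102, 95.3 and 95.5 CPM in WT-D, at 99.1, 90.7, 89.5 and 90.6 in 3xTg-D, at 103, 109, 103 and 91.1 in WT-S and at 84.0, 94.7, 86.5 and 90.5 in 3xTg-S. WT-S held the 3 highest mice and 3xTg-S the 2 lowest, with overlap at 91.1 CPM in WT-S mouse 4, and without that mouse Syt5 was called (-0.26, adjusted p = 0.139). Without 3xTg-S mouse 2, Pclo was called (0.67, adjusted p = 0.113). With the replicate number as a block, where calls over all genes rose, Unc13b, Pclo, Rims3, Bsn and Rims2 were called.

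Whether SCDi acted differently in the genotypes was tested as an interaction over all 16 mice. By edgeR 0 of 36 members were called, against 0.595% of genes, with 1 member, Bsn, at an unadjusted p below 0.05, against 4.98% of genes, and 0 by DESeq2. The interaction log2 values were 0.74 ± 0.36 for Pclo, 0.64 ± 0.28 for Bsn, 0.55 ± 0.28 for Unc13b and 0.55 ± 0.27 for Slc17a6, all with an adjusted p of 0.788. Cplx2 had the lowest value, -0.23 ± 0.12 (SE, adjusted p = 0.788). Leaving out WT-S mouse 4 brought Unc13b (0.75, adjusted p = 0.366) and Bsn (0.81, adjusted p = 0.366) past 0.01, and leaving out 3xTg-S mouse 2 brought Pclo (0.92, adjusted p = 0.308), Bsn (0.76, adjusted p = 0.308) and Cplx2 (-0.33, adjusted p = 0.308) past it. With the replicate number as a block, where calls over all genes rose, Pclo, Bsn and Unc13b were called (adjusted p = 0.240 each).

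Apart from Rims2 and Rims3, the members given mouse by mouse were picked after their values were seen. Among the priming and active zone genes these are the giant scaffolds Pclo and Bsn and the priming factors Unc13a and Unc13b. Pclo (ENSMUSG00000061601.15, chr5:14514918-14863459, plus strand) encodes piccolo, which with bassoon, the product of Bsn, organises the matrix of the active zone. Pclo was at 339, 281, 331 and 291 CPM in WT-D, at 274, 141, 307 and 322 in 3xTg-D, at 218, 210.2, 256 and 368 in WT-S and at 378, 209.5, 379 and 512 in 3xTg-S. The lowest was 3xTg-D mouse 2 and the highest 3xTg-S mouse 4, which differed 3.63-fold. Bsn (ENSMUSG00000032589.14, chr9:108096022-108190384, minus strand) was at 302, 234, 273 and 250 CPM in WT-D, at 219.5, 145, 227 and 259 in 3xTg-D, at 184, 199, 229 and 321 in WT-S and at 276, 203, 327 and 357 in 3xTg-S, with the same lowest and highest mouse.

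Unc13b (ENSMUSG00000028456.18, chr4:43058953-43264871, plus strand), which encodes Munc13-2, was at 39.8, 42.4, 43.0 and 47.8 CPM in WT-D, at 39.9, 26.6, 36.1 and 44.5 in 3xTg-D, at 37.5, 31.7, 34.8 and 57.1 in WT-S and at 46.2, 35.9, 48.8 and 69.5 in 3xTg-S. Again 3xTg-D mouse 2 was lowest and 3xTg-S mouse 4 highest. Unc13a (ENSMUSG00000034799.16, chr8:71624417-71671757, minus strand), which encodes Munc13-1, the main priming factor of excitatory synapses, was at 258, 258, 247 and 295 CPM in WT-D, at 263, 180.1, 248 and 277 in 3xTg-D, at 237, 251, 221 and 339 in WT-S and at 277, 236, 286 and 322 in 3xTg-S, with 3xTg-D mouse 2 lowest and WT-S mouse 4 highest. For each of these 4 genes all 4 groups overlapped. In 3xTg mice the log2 fold change with SCDi was 0.50 ± 0.28 (SE, adjusted p = 0.722) for Pclo and 0.21 ± 0.13 (SE, adjusted p = 0.730) for Unc13a, beside those of Bsn and Unc13b above.

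These 4 genes followed a property of the libraries, the share of uniquely mapped reads outside annotated genes. That share was 10.6%, 10.5%, 11.9% and 12.5% in WT-D, 11.3%, 8.79%, 10.1% and 10.9% in 3xTg-D, 10.4%, 8.55%, 9.93% and 13.1% in WT-S and 12.8%, 7.82%, 12.01% and 15.1% in 3xTg-S. The lowest were mouse 2 of 3xTg-D, WT-S and 3xTg-S, and the highest mouse 4 of WT-S and of 3xTg-S. With the share as a slope beside the 4 groups in edgeR, 11 of 36 members were called, against 27.3% of all genes, again a share close to that of all genes, and the same 11 at an adjusted p of 0.05 or less, against 30.4%.

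**Figure D4:**
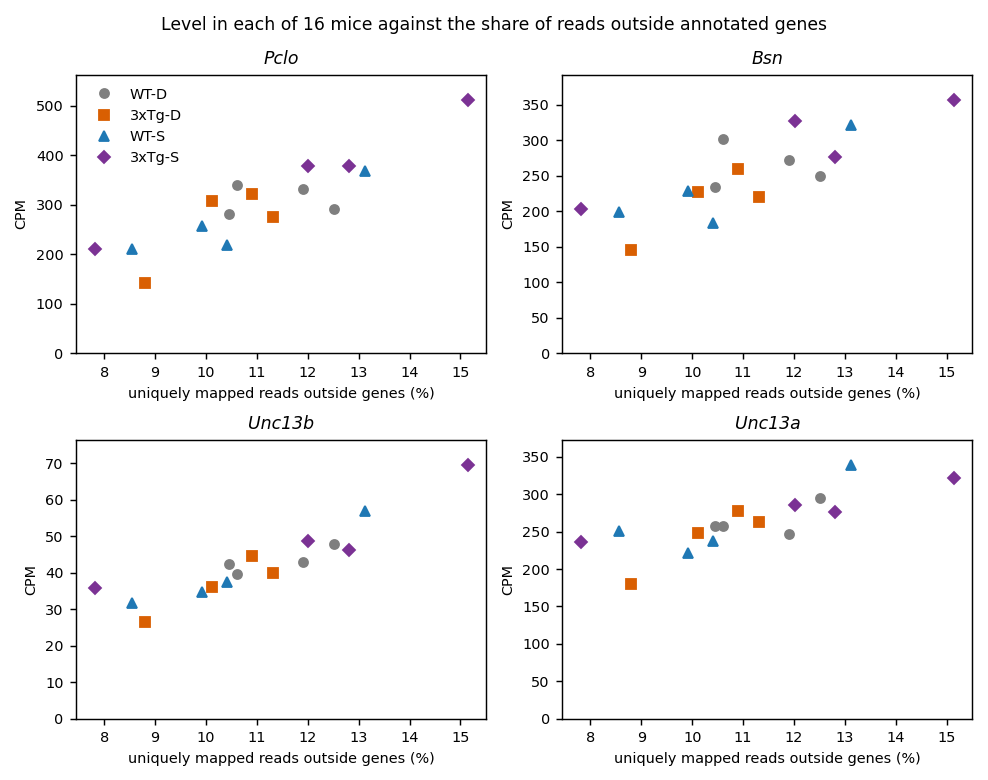
CPM of Pclo, Bsn, Unc13b and Unc13a in each of 16 mice (vertical axis) against the percentage of uniquely mapped reads outside annotated genes (horizontal axis), with 1 symbol per group. In all 4 panels 3xTg-D mouse 2, at a share of 8.79%, is lowest, and 3xTg-S mouse 4, at 15.1%, is highest for Pclo, Bsn and Unc13b.

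Per percentage point of that share, Pclo gained 0.18 ± 0.03 (SE, adjusted p = 0.000523), Unc13b 0.15 ± 0.02 (SE, adjusted p = 2.79e-05), Bsn 0.12 ± 0.03 (SE, adjusted p = 0.00268) and Unc13a 0.09 ± 0.02 (SE, adjusted p = 0.00315). Syn3 gained 0.08 and Stxbp5, which encodes tomosyn, an inhibitor of SNARE assembly, 0.04. Members with the opposite slope were Cplx2 (-0.05), Cplx1 (-0.04), Rab3a (-0.04), Vamp2 (-0.04) and Syngr3, a synaptogyrin (-0.03). Within the 8 WT mice alone 4 of 36 members were called, Unc13b, Pclo, Unc13a and Cplx1, against 1929 of 16475 genes. Within the 8 3xTg mice 6 were called, Unc13b, Pclo, Unc13a, Bsn, Syn3 and Cplx2, against 2749 genes. Without 3xTg-S mouse 2, 5 members were called, Unc13b, Pclo, Unc13a, Bsn and Cplx2, against 2822 genes. In each of these fits the members' share was close to or below that of all genes. The share itself was 7.82% to 15.1% in 3xTg-S and 8.79% to 11.3% in 3xTg-D, so the SCDi effect in 3xTg mice was also fitted with the share as a covariate. It was then 0.13 for Pclo (adjusted p = 0.875), 0.23 for Bsn (adjusted p = 0.762), 0.20 for Unc13b (adjusted p = 0.762) and 0.08 for Unc13a (adjusted p = 0.872).

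The members with steep positive slopes shared a long combined exon length, which merges the exons of all annotated transcripts of a gene. Combined exons measured 22746 bases in Unc13b, 22457 in Pclo, 16513 in Stxbp5, 15938 in Bsn, 12623 in Unc13a and 12282 in Syn3. All 6 members with over 12000 bases had a slope above 0, and 11 of 12 with under 5000 bases had a slope below 0. Across the 36 genes, which share the same 16 libraries and are not independent, Pearson's r of slope and exon length was 0.873 and Spearman's rho 0.673, and without Pclo, Bsn, Unc13a and Unc13b Pearson's r was 0.628 over 32 genes. The length of the gene with its introns was less closely related, with r = 0.237 and rho = 0.557.

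**Figure D5:**
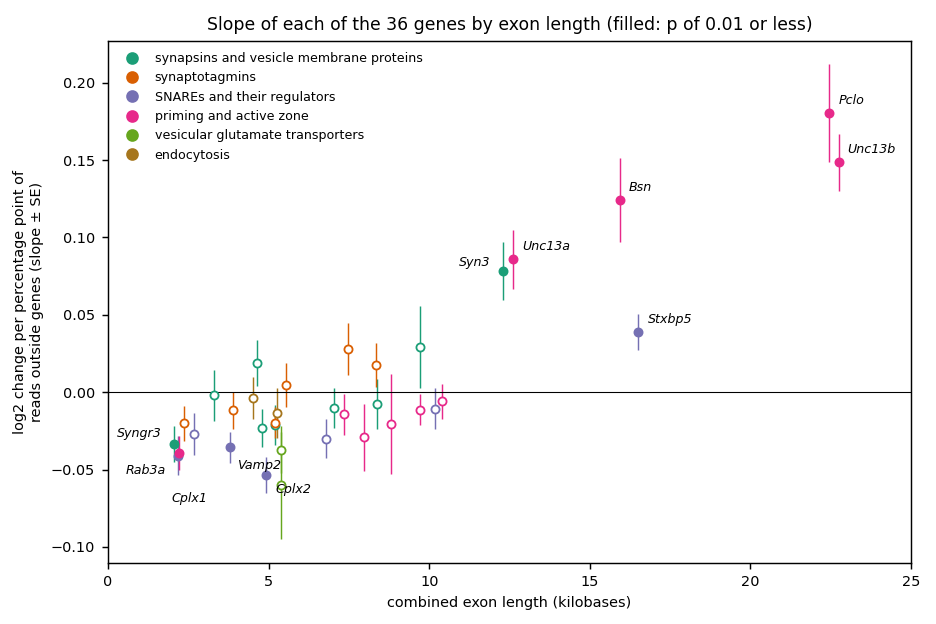
Slope of each of the 36 genes on the share of reads outside genes (log2 per percentage point, with SE) against combined exon length in kilobases, coloured by role and filled where called. The 6 genes with over 12000 bases of exon all lie above 0, led by Pclo at 0.18.

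The other genes of the vesicle cycle came from a list of 99, of which 95 were tested. Under vehicle 5 of the 95 were called, beside the 4.91% of all genes given above, a share close to that of all genes. All 5 were higher in 3xTg mice, Mctp1, Rab3b, Rims4, Erc1 and Ppfia3. Mctp1, a calcium-binding membrane protein with C2 domains, was at 99.9, 101, 107 and 93.1 CPM in WT-D, at 125, 117, 143 and 135 in 3xTg-D, at 102, 102, 105 and 97.6 in WT-S and at 140.1, 129, 143 and 132 in 3xTg-S. All 3xTg mice stood above all WT mice, and the log2 fold change was 0.38 ± 0.07 under vehicle (adjusted p = 0.0209) and 0.41 ± 0.07 under SCDi (adjusted p = 0.0112). Erc1, the ubiquitous relative of Erc2, was at 70.5, 71.0, 74.0 and 71.7 CPM in WT-D, at 89.1, 75.2, 83.4 and 90.2 in 3xTg-D, at 73.6, 73.9, 69.0 and 76.5 in WT-S and at 94.1, 93.7, 99.7 and 96.6 in 3xTg-S. The 3xTg-D mice stood above WT-D and the 3xTg-S mice above all WT mice, with 3xTg-D mouse 2 below WT-S mouse 4. The log2 fold change was 0.24 ± 0.06 under vehicle (adjusted p = 0.0979), 0.38 ± 0.06 under SCDi (adjusted p = 0.0146) and 0.40 ± 0.05 from WT-D to 3xTg-S (adjusted p = 0.0019).

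Rims4, the other short RIM gene, was at 31.6, 37.5, 39.5 and 32.4 CPM in WT-D, at 41.3, 49.0, 43.1 and 43.6 in 3xTg-D, at 36.3, 41.0, 45.4 and 37.1 in WT-S and at 39.5, 53.7, 43.9 and 49.6 in 3xTg-S. The 3xTg-D mice stood above WT-D without overlap, while 3xTg-S mouse 1 lay within the WT-D range. Its log2 fold change was 0.33 ± 0.08 from WT-D to 3xTg-D (adjusted p = 0.0951) and 0.39 ± 0.11 from WT-D to 3xTg-S (adjusted p = 0.122). Rab3b, a relative of Rab3a, had means of 26.7 ± 6.15 and 44.2 ± 6.19 CPM in WT-D and 3xTg-D (SD, n = 4 each). It rose by 0.73 ± 0.15 on the log2 scale (adjusted p = 0.0395). Ppfia3, a liprin scaffold, had 0.15 ± 0.04 (adjusted p = 0.125). From WT-D to 3xTg-S the endocytic scaffold Itsn1 was also called higher (0.25 ± 0.06, adjusted p = 0.0717) and Stxbp6 lower (-0.23 ± 0.07, adjusted p = 0.145), so that 5 of 95 were higher and 1 lower there, beside 5.69% of all genes. Between 3xTg-S and WT-S 4 of 95 were called, beside 4.26% of all genes, all higher, Erc1, Mctp1, Atp6v0c and the dynamin gene Dnm3 (0.33 ± 0.10, adjusted p = 0.203).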

How the data were processed

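Hippocampal RNA of 16 mice was sequenced as single-end libraries whose adapters carried molecular identifiers. Per the submitters' notes and the study's methods, Trimmomatic 0.35 removed adapters, STAR 2.5.1b did the alignment to GRCm38, and reads were counted per gene of Gencode M23. The table the authors deposited holds whole-number counts per gene and mouse. Its column totals on genes ranged from 15413385 to 23590149, which sets the counting precision. The strand setting and the use of the identifiers are not given in the sources used here. Its 4 summary lines, 23.95% to 27.81% of all reads, were left out of library sizes and tests, and no column came from another sample. The share of reads outside genes is the no-feature line as a percentage of uniquely mapped reads.

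From these counts, genes were kept with edgeR's filterByExpr (minimum count 10, minimum total 15), which left 16475 of 33942 detected genes. Libraries were scaled by TMM. Each pair of groups was fitted on its own 8 mice, and the interaction and the slope on all 16, with edgeR 4.0.16's quasi-likelihood test in R 4.3.3 across all genes. A gene was called where the unadjusted p did not exceed 0.01, the threshold of the study, and Benjamini-Hochberg adjusted p-values over all genes are given beside it. P-values weigh a group difference or slope against the spread between mice. The code was tested on simulated data. Levels are CPM, and levels per kilobase use the combined exon length of Gencode M21, which may differ from the release used in counting. Promoter windows came from RefSeq (GRCm38.p6).

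The 36 genes, the other gene lists and the tests were chosen with earlier results of these data known. By the rule for named genes, members called in a comparison are given mouse by mouse, the other members by role, and the called genes of the longer list by name. Rims1, Syn3, Syt4, Syt5, Erc2, Pclo, Bsn, Unc13a and Unc13b fall outside that rule and were picked after their values were seen. The slope and the joint leave-outs of mice were also added after the data were seen. Replicate counts were compared before averaging, and the chi-square per degree of freedom between mice of a group was 3.776 to 45.18, so no pair was a repeated library. Replicate numbers come from the labels and nothing states a shared litter or day. Between WT-S and WT-D the deviations of same-numbered mice correlated at 0.11, 0.21, 0.21 and 0.34, so the block is given beside that result. Alternatives were DESeq2 1.42.0, its size factors, no filter, all 16 mice in 1 fit, the replicate block, covariates for the share of reads outside genes and for choroid plexus markers, and each mouse left out.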

Additional observations from a re-analysis of the deposited data

Results flagged for a closer look

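Within each of the 144 sets of 4 mice (36 genes in 4 groups), the lowest or highest mouse was compared with the rest by Dixon's ratio at its 95% critical value. A mouse stood apart in 6 sets, where chance at 1 in 20 gives 7.2. Syn3 was at 13.35 CPM in WT-S mouse 4 against 9.39 to 9.95 CPM in the other 3. Sv2b was at 530.6 CPM in WT-D mouse 4, the mouse with the highest Ttr, against 599.8 to 609.1 CPM. Syt5 was at 101.5 CPM in WT-D mouse 2 against 94.66 to 95.49 CPM, and at 99.07 CPM in 3xTg-D mouse 1 against 89.47 to 90.74 CPM. Snap25 was at 2061 CPM in 3xTg-D mouse 2 against 2287 to 2330 CPM. Erc2 was at 312.8 CPM in WT-D mouse 1 against 282.9 to 287.5 CPM.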

How the results depend on the processing

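Counts in this paragraph are of the 36 members. Calls over all genes moved with the setting too, as the next paragraph gives, so a change in these counts is not a result about the members alone. The number of members called between 3xTg-D and WT-D was 0, and it was 1 with the replicate block, 1 with no filter on low counts and 0 to 1 on leaving out mice. Between 3xTg-S and 3xTg-D it was 0, and it was 4 with the replicate block, 1 by DESeq2, 2 with no filter, 1 with the share of reads outside genes as a covariate and 0 to 3 on leaving out mice. Between WT-S and WT-D it was 0, with 1 by DESeq2 and 0 to 3 on leaving out mice. Between 3xTg-S and WT-S it was 0, and it was 5 with the replicate block, 1 by DESeq2, 2 with all 16 mice in 1 fit, 3 with the share as a covariate and 0 to 1 on leaving out mice. Between 3xTg-S and WT-D it was 2, and it was 0 at an adjusted p of 0.05 or less, 4 with the share as a covariate, 0 with the choroid plexus score as a covariate, 1 without the mice rich in Ttr and 0 to 3 on leaving out mice. For the interaction it was 0, with 3 under the replicate block and 0 to 3 on leaving out mice. For the slope it was 11, with 4 in the 8 WT mice, 6 in the 8 3xTg mice and 5 to 12 on leaving out mice. Over all 16475 genes the slope gave 4502 calls, 1929 in the 8 WT mice, 2749 in the 8 3xTg mice and 2822 to 4536 on leaving out mice. The Unc13b difference between WT-S and WT-D was -0.10 and turned to 0.00791 with the share as a covariate. The members called with the replicate block were Rims3 in 3xTg-D against WT-D (adjusted p = 0.164), and in 3xTg-S against 3xTg-D Pclo (0.50, adjusted p = 0.0247), Bsn (0.45, adjusted p = 0.0225), Unc13b (0.43, adjusted p = 0.0269) and Unc13a (0.22, adjusted p = 0.121). In 3xTg-S against WT-S they were Unc13b, Pclo, Rims3, Bsn and Rims2 (adjusted p from 0.0491 to 0.116), and for the interaction Pclo, Bsn and Unc13b (adjusted p = 0.240 each). Of 622 recomputed values for the 33 named differences, 556 kept direction and side of the threshold, 52 passed it newly, 13 no longer passed it and 1 reversed. Among the 33, only Rims2 and Rims3 from WT-D to 3xTg-S were called in the main fits, so only these could lose a call. Rims2 stayed called in 15 of 18 alternatives and Rims3 in 8 of 18. The other named differences were uncalled at the start, so keeping their side of the threshold is no sign of a stable call. The causes were not tested.

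Over all 16475 genes tested, the replicate block moved calls from 149 to 1133 (3xTg-S against 3xTg-D), from 702 to 1339 (3xTg-S against WT-S) and from 98 to 624 (interaction). The member counts with the block stand beside these. Mice with the same replicate number share no stated origin. Same-numbered mice correlated at 0.02 to 0.39 in 3xTg-S and 3xTg-D and at -0.10 to 0.50 in 3xTg-S and WT-S. With no filter, which raised the genes tested to 33942, calls moved from 149 to 355, 702 to 1077, 98 to 208 and, in WT-S against WT-D, 31 to 180. In that last comparison DESeq2 gave 48 calls, all 16 mice in 1 fit 48 and the share as a covariate 49. In 3xTg-S against 3xTg-D the choroid plexus score as a covariate gave 91.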

Other observations

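Atp6v0c, which encodes a subunit of the proton pump that acidifies vesicles and lysosomes, lay at 2 levels. It was at 42.6 to 61.7 CPM in 4 mice, WT-D mouse 3 and 3xTg-S mice 1, 2 and 3, and at 13.7 to 17.4 CPM in the other 12, with no mouse between. The log2 difference was 1.52 ± 0.34 between 3xTg-S and 3xTg-D (adjusted p = 0.722) and 1.5 ± 0.34 between 3xTg-S and WT-S (adjusted p = 0.0675), and 3xTg-S mouse 4 was at the lower level.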
